A study of Mus musculus with 9 samples.

Results

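Protein tyrosine phosphatases remove phosphate from tyrosine, and dual-specificity phosphatases remove it from tyrosine as well as from serine or threonine. In T cells they set the strength of antigen receptor, cytokine receptor and MAP kinase signals. Receptor-type members (Ptpr) span the membrane, non-receptor members (Ptpn) lie inside the cell, the MAP kinase phosphatases among the Dusp genes inactivate ERK, JNK and p38, and the PRL phosphatases (Ptp4a) are small prenylated enzymes. The members described here are all gene symbols that begin with Dusp, Ptpn, Ptpr or Ptp4a in 5 lists deposited for a study of T-bet, the transcription factor encoded by Tbx21, in mouse T helper 1 (Th1) cells. They number 33 of the 7189 symbols in these lists. A RefSeq gene table (GRCm38.p6, used for names) holds 65 protein-coding genes with these prefixes. They include Ptprcap, which encodes an associated protein and not a phosphatase. Of the 65 genes, 32 were listed, and the remaining listed symbol, Ptprv, is a transcribed pseudogene in that table.

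The series compared Th1 cells of C57BL/6 mice with and without Tbx21. Both genotypes carried the T-bet-ZsGreen reporter, so that the groups are C57BL/6 T-bet-ZsGreen (wild type) and C57BL/6 Tbx21-/- T-bet-ZsGreen. Naive CD4+ cells were stimulated for 3 to 4 days with anti-CD3 at 1 μg/ml and anti-CD28 at 3 μg/ml beside irradiated splenocytes without T cells. The Th1 mix held IL-2 at 10 IU/ml, IL-12 at 10 ng/ml and anti-IL-4 at 10 μg/ml. Reporter-positive cells were then sorted and grown on for 3 days with IL-2 at 50 U/ml. The age, sex and number of the mice are not given in the labels. RNA-seq was made from 2 libraries of each genotype, T-bet ChIP-seq from 1 wild type library, and ChIP-seq of H3K4me1 (a mark of enhancers) and H3K27me3 (a mark of Polycomb repression) from 1 library of each genotype.

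The expression lists hold 430 genes with 1 combined FPKM per genotype (sequenced fragments relative to transcript length and to all fragments), 219 lower and 211 higher in Tbx21-/- cells. The region lists hold 3226 peaks of T-bet, 7669 regions of H3K4me1 and 3949 of H3K27me3 in build mm9, each assigned by the authors to its closest gene. With combined values and single libraries no spread between replicates is given, so no value below has an error or a test, and the depth of the libraries is unknown. Tbx21 itself was listed with 271 FPKM for wild type and 124 for the knockout, so transcript of the targeted gene was still counted there. Of 7 Th1 markers, 6 were listed as lower in the knockout, among them Tbx21, the targeted gene itself. Of 7 general T cell markers 0 were on either list. Of 10 markers of myeloid or dendritic cells, 5 were listed as higher in the knockout, namely Cebpb and 4 genes of MHC class II presentation. Cd74, for example, had 17.3 FPKM in wild type against 77.4 in the knockout. Of 6 CD8 T or NK cell markers, Cd8a (39.6 FPKM in wild type, 19.1 in the knockout) and Nkg7 (571 and 42.9 FPKM) were listed as lower in the knockout, as the phosphatase genes were. Of 6 B cell markers, Blk was lower (12.8 and 4.82 FPKM) and Cd79a higher (0.722 and 5.36 FPKM). The lineage-defining Csf1r, Itgam, Itgax and Lyz2 were on neither expression list, nor were Ms4a1 and Ncr1, and the part of such cells in the phosphatase values was not tested.

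**Figure D1:**
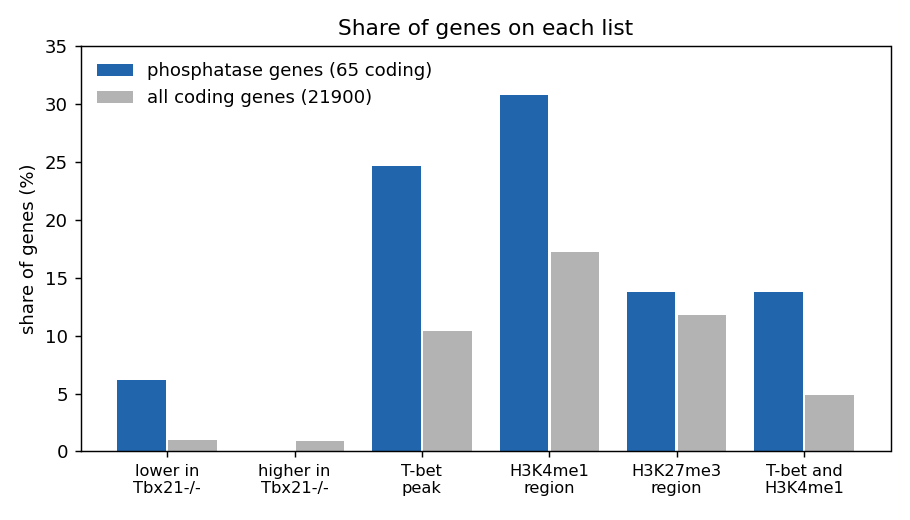
Share of genes (%, vertical axis) found on each list, for the 65 protein-coding genes with the phosphatase prefixes (blue) and all 21900 protein-coding genes (grey). Bars are counts over fixed gene sets, without error bars. The phosphatase share was 24.6% against 10.4% for T-bet peaks and 13.8% against 11.8% for H3K27me3 regions.

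Phosphatase genes on the expression lists were all lower without T-bet. They were Ptpn5, Ptpre, Dusp2 and Ptpn12, that is 4 of the 65 coding genes or 6.15%, where 0.963% of all coding genes were on that list. On the list of genes higher in Tbx21-/- cells stood 0 of the 65 genes, where 0.941% of all coding genes were. The remaining 29 members have no expression value here. Nor do other coding genes outside these lists, so the shares are taken over genes that these cells may or may not express. Absence from both lists says only that a gene did not meet the authors' criteria, since listed genes differ 2-fold or more and reach 5.02 FPKM or more in one of the genotypes.

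Annotated promoter sequences of listed genes were searched for the T-box half-site AGGTGTGA and its inner letters GTGTGA. Which start these cells used was not measured. The sequences run from 250 bases before to 50 bases after a RefSeq start (GRCm38.p6). They are given for Dusp2, which had T-bet peaks as well as lower expression, for both starts of Ptpn5, the member with the largest fold difference, and for the start of Ptpre that holds the inner letters, here on the other strand as TCACAC in capitals.
Dusp2, chr2:127335909-127336208, plus strand: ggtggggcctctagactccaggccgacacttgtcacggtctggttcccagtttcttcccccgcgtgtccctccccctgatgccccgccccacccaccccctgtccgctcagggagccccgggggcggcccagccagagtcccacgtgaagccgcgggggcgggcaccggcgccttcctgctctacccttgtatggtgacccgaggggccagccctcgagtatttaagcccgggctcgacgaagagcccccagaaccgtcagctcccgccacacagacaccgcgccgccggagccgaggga
Ptpn5, chr7:47133635-47133934, minus strand: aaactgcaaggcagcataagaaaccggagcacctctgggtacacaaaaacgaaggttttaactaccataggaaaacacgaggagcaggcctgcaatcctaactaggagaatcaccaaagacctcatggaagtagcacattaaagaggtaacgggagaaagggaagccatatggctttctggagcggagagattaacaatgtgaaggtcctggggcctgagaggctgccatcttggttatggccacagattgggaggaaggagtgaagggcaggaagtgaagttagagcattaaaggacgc
Ptpn5, chr7:47132549-47132848, minus strand: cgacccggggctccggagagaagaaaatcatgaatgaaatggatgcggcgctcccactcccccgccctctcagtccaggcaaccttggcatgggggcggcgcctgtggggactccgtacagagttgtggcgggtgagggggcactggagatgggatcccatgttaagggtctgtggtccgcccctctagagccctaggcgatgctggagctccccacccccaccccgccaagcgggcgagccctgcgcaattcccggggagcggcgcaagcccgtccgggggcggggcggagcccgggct
Ptpre, chr7:135605578-135605877, plus strand: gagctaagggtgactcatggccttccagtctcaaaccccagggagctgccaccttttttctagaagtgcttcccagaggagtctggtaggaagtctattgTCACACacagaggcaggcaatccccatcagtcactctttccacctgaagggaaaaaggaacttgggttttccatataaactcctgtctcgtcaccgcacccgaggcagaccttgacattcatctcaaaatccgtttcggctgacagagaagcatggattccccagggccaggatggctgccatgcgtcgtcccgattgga
These positions are in GRCm38.p6 and cannot be set against the mm9 positions of the peaks.

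The Dusp2 promoter was rich in G and C (70.7%) with 26 CpG dinucleotides. The Ptpn5 starts differed from each other, with 48.7% and 6 CpG at one and 69% and 24 CpG at the other. The Ptpre start shown had 52.7% and 8 CpG, and its other starts, with no match, had 65.7% with 20 CpG and 47% with 5 CpG. Over both strands the half-site AGGTGTGA was in 0 of 70 promoter windows of genes with the 4 prefixes, where 1.28% of all 32851 windows hold it. GTGTGA, which lies within the half-site, was in 4 of the 70 windows (5.71%, at Ptpn22, Ptpn4, Ptpre and Ptprg), where 14.5% of all windows hold it. The median content of G and C was 62.7% over the 70 windows and 52.7% over all windows. The 70 windows belong to 53 genes. Of the 33 members, 26 had a window in the table. Ptpn12 had none, so its promoter was not searched.

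Ptpn5 encodes STEP, a phosphatase best known from neurons that binds MAP kinases through a kinase interaction motif. Wild type cells had 15.0 FPKM and knockout cells 1.76. The log2 ratio, Tbx21-/- over wild type, was -3.01 in the authors' deposited table and ranked 29th by size of 219. Ptpre, a receptor-type phosphatase that acts on Src family kinases, had 19.9 FPKM in wild type and 7.80 in the knockout, for which the authors' deposited table gives a log2 ratio of -1.34. Dusp2, or PAC-1, is a nuclear MAP kinase phosphatase induced on lymphocyte activation. It had the highest level of these genes in both genotypes, with 27.3 FPKM in wild type and 12.8 in the knockout, and the authors' deposited table gives its log2 ratio as -1.06. Ptpn12, or PTP-PEST, acts on cytoskeletal adaptors and had 8.79 FPKM in wild type and 4.36 in the knockout, with -1.04 as log2 ratio in the authors' deposited table. Ptpn5 alone exceeded the median fold of the positive list, 3.00. Dusp2 and Ptpn12 ranked 206th and 214th of 219 and so lay close to the 2-fold limit of the list. Ptpn12 fell under that limit with a pseudocount of 1 FPKM (log2 ratio -0.87) and under a minimum of 10 FPKM in the higher genotype, which leaves 3 of the 4 genes under each of these settings.

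**Figure D2:**
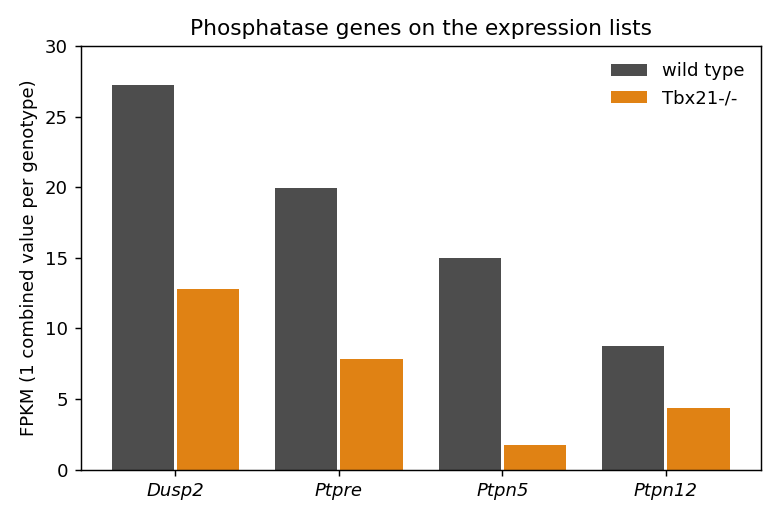
FPKM (vertical axis, linear, 1 combined value per genotype, no error available) of the 4 phosphatase genes on the expression lists, wild type in grey and Tbx21-/- in orange. Each gene is lower in Tbx21-/- cells, from 27.3 to 12.8 FPKM for Dusp2 and from 15.0 to 1.76 FPKM for Ptpn5.

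All 4 genes had listed H3K4me1 regions, 14 in all, where 70.1% of the 211 coding genes of the positive list had at least 1. Dusp2 and Ptpn5 also had T-bet peaks, where 45.0% of that list had one, and 0 of the 4 had an H3K27me3 region, where 16.1% did. Ptpre had 3 H3K4me1 regions on chromosome 7 between 142730319 and 142741350, with fold enrichments from 4.57 to 5.76. Ptpn12 had 5 on chromosome 5 between 20531424 and 20556317, each short (347 to 587 bp) and thin (13 to 24 tags), with fold enrichments from 5.98 to 10.40. Fold enrichment and tag counts are the authors' own values for a region. For the histone lists the sources used here do not say which genotype carried more signal, so that a region gives a place and no direction. Each histone list is headed by both genotypes, and whether it holds every region of the mark is not stated. Of 7 general T cell markers, 1 (14.3%) had a listed H3K4me1 region, where 17.2% of all coding genes had one. A gene without a listed region may still carry the mark.

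T-bet peaks were assigned to 16 of the 65 coding genes, or 24.6%, where 10.4% of all coding genes had one. They numbered 22, with fold enrichments from 1.52 to 5.43, tag counts from 6 to 18 and false discovery rates from 0.21% to 0.59%. The median fold enrichment was 2.11, against 2.62 over all 3226 peaks, and 8 of the 22 peaks lay above the latter. By role, 8 of 17 non-receptor genes had a peak, 3 of 10 MAP kinase phosphatases, 3 of 20 receptor genes, 2 of 3 PRL genes and 0 of 14 atypical dual-specificity genes. The remaining coding gene, Ptprcap, had none. The groups are small and were not compared by a test.

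**Figure D3:**
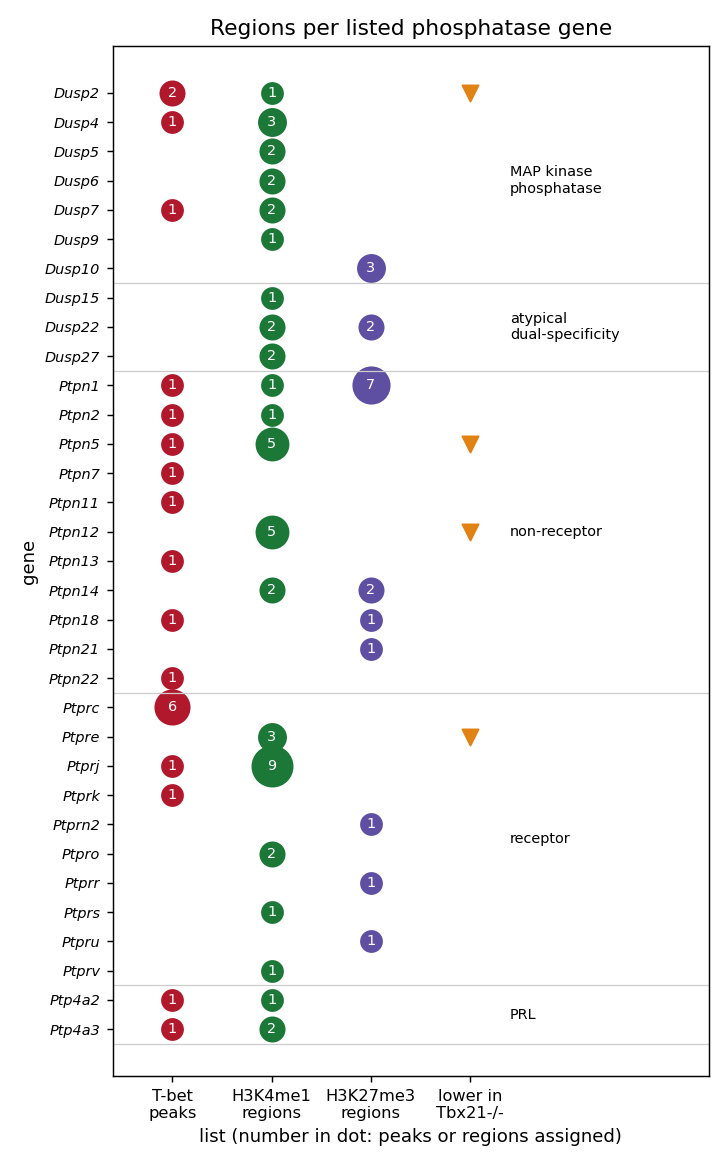
Number of peaks of T-bet and regions of H3K4me1 and H3K27me3 (number in each dot, dot area growing with it) assigned to each of the 33 listed genes, grouped by role; an orange triangle marks genes lower in Tbx21-/- cells. Ptprc stands out by 6 T-bet peaks, Ptprj by 9 H3K4me1 regions and Ptpn1 by 7 H3K27me3 regions.

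Ptprc encodes CD45, the abundant leukocyte phosphatase that activates Lck and Fyn. It had 6 T-bet peaks on chromosome 1 spread over 89922 bp, from 139998928 to 140088849. In the whole list 11 of 2492 genes had at least 6. One of the peaks, at 139998928 to 139999172, had a fold enrichment of 4.29 from 6 tags, while the other 5 ranged from 1.52 to 2.02 with 7 to 17 tags. Ptprc had no listed H3K4me1 or H3K27me3 region. The H3K4me1 regions nearest to its peaks were assigned to Mir181b-1 and Atp6v1g3, 36137 bp and 61331 bp away at the closest.

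Ptprj encodes CD148, a receptor phosphatase of Src family kinases and of the antigen receptor pathway. Its T-bet peak on chromosome 2 at 90404718 to 90405114 had the highest fold enrichment among the members, 5.43 from 12 tags, which ranks 255th of 3226. Ptprj also had the most H3K4me1 regions of the members, 9 over 106336 bp, and 60 of 4173 genes in that list had as many or more. The T-bet peak ended 169 bp before the region at 90405284 to 90407926, which held 162 tags. A separate run of 5 regions spanned 27723 bp at the other end of the locus, starting at 90303522. Ptprj was on neither expression list.

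Ptpn5 had 1 T-bet peak on chromosome 7 at 54368826 to 54369030, with a fold enrichment of 4.20 from 8 tags. It had 5 H3K4me1 regions, which together covered 8146 bp, and 1.80% of the genes in that list had at least as much. The T-bet peak lay between regions, 1282 bp from the region at 54370313 to 54374203, which held 253 tags. Among the Ptpn and Ptpr genes, Ptpn7 and Ptprr encode the other phosphatases with the kinase interaction motif. Ptpn7, the form of blood cells, had a T-bet peak on chromosome 1 at 137033098 to 137033350 with a fold enrichment of 2.58, and Ptprr had 1 H3K27me3 region. The H3K4me1 region nearest to the Ptpn7 peak was assigned to its neighbour Ptprv, 5871 bp away, so a locus can be divided between names by the closest-gene rule.

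Dusp2 had 2 T-bet peaks on chromosome 2, at 127135761 to 127136080 and 127140189 to 127140608, both weak, with fold enrichments of 1.90 and 1.59 from 7 and 10 tags. The former lay wholly inside the gene's H3K4me1 region, at 127134940 to 127136986, which held 96 tags. It was the only 1 of the 22 member peaks that touched an H3K4me1 region, or 4.55%, where 9.55% of all T-bet peaks touched one. Within 1000 bp of such a region lay 2 of 22 peaks, at Dusp2 and Ptprj, where 16.3% of all peaks did. Within 10 kb the share was 40.9% of the member peaks and 31.2% of all peaks.

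The other MAP kinase phosphatases with a T-bet peak were Dusp4 and Dusp7. Dusp4, a nuclear phosphatase of ERK and JNK, had a peak on chromosome 8 at 35803368 to 35803654 (fold enrichment 1.98, 8 tags) and 3 H3K4me1 regions, the nearest 4108 bp away. Dusp7, a cytoplasmic ERK phosphatase, had a peak on chromosome 9 at 106275292 to 106275692 with a fold enrichment of 4.25 and 16 tags. Its own H3K4me1 regions lay 40948 bp away, and a region assigned to Rpl29 was slightly nearer, at 39413 bp. The ERK phosphatase genes Dusp5, Dusp6 and Dusp9 had H3K4me1 regions and no T-bet peak. Dusp10, which acts on JNK and p38, had only H3K27me3 regions, and Dusp1, Dusp8 and Dusp16 were on none of the lists.

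Ptpn22, Ptpn2 and Ptpn11, non-receptor phosphatases of antigen or cytokine receptor signalling, had 1 T-bet peak each. Ptpn22, which dephosphorylates Lck together with Csk, had a peak on chromosome 3 at 103663762 to 103664303 with a fold enrichment of 2.41 and 18 tags. Ptpn2, a phosphatase of JAK1 and JAK3, had one on chromosome 18 at 67883844 to 67884325 with a fold enrichment of 1.79 and an H3K4me1 region 6017 bp away. Ptpn11, which encodes SHP-2, had one on chromosome 5 at 121556996 to 121557400 with a fold enrichment of 1.79. It lay 409049 bp from the nearest listed H3K4me1 region, the farthest of the member peaks. Ptpn6, which encodes the inhibitory SHP-1, was on none of the lists. Ptpn13, a large PDZ-domain phosphatase, and Ptprk, a receptor phosphatase of cell contacts, had a peak each, with fold enrichments of 4.46 and 3.11 from 6 tags.

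Among the PRL phosphatases Ptp4a2 and Ptp4a3 had a T-bet peak each, while Ptp4a1 was on none of the lists. The Ptp4a3 peak on chromosome 15 at 73567350 to 73567595 (fold enrichment 2.20, 6 tags) lay between a pair of long H3K4me1 regions, of 4647 and 5672 bp with 344 and 415 tags. Together these regions covered 10319 bp, and 0.959% of the genes in the list had at least as much. The Ptp4a2 peak on chromosome 4 at 129488461 to 129489059 had a fold enrichment of 2.98 and 18 tags, with a thin H3K4me1 region of 13 tags 7525 bp away.

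**Figure D4:**
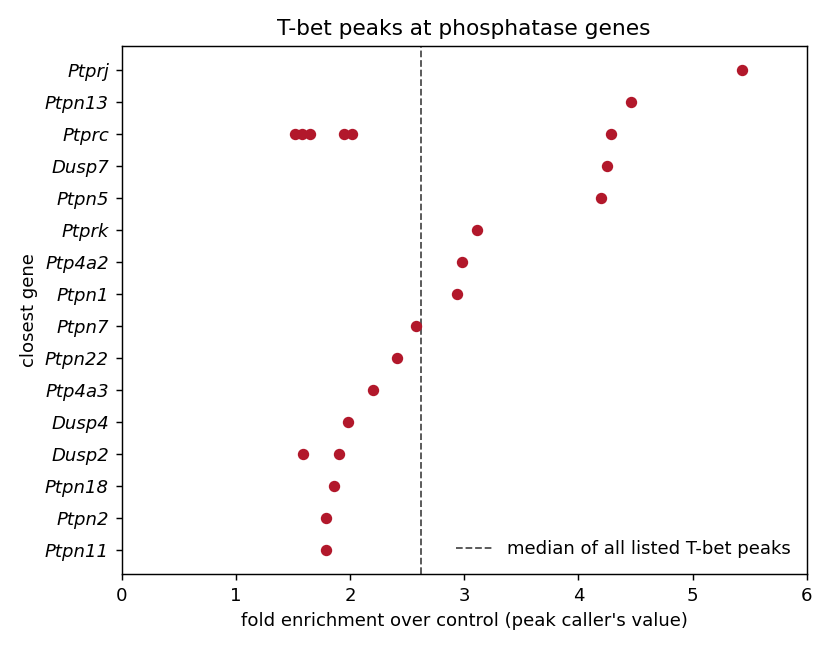
Fold enrichment (horizontal axis, linear, the peak caller's value) of each of the 22 T-bet peaks at phosphatase genes, 1 point per peak, with the median of all 3226 peaks as a dashed line. Peaks at Ptprj, Ptpn13, Dusp7 and Ptpn5 and 1 of the 6 at Ptprc lie above 4, while both Dusp2 peaks lie under 2.

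H3K4me1 regions were assigned to 21 members, of which 20 are coding, or 30.8% of the 65 genes where 17.2% of all coding genes had one. Of the 21 genes, 8 had 1 region, 8 had 2 and 5 had at least 3, the latter being Ptprj, Ptpn5, Ptpn12, Dusp4 and Ptpre. At least 2 regions were assigned to 61.9% of the 21 genes and to 36.1% of all 4173 genes in the list. Of all genes in the list 16.8% had at least 3. Over the 49 regions the median fold enrichment was 5.56, against 6.91 over the whole list, and the median length was 951 bp, against 688 bp. The 6 regions of at least 3000 bp (at Ptp4a3, Ptpn1, Ptpn5, Ptprs and Ptprv) had 168 to 447 tags and fold enrichments from 3.19 to 6.75. The 12 regions under 500 bp had 9 to 26 tags and fold enrichments from 4.87 to 12.06. Spearman's rho between length and fold enrichment was -0.70 over the 49 regions and -0.63 over all 7669, as a description of values that come from the same libraries. The highest fold enrichment, 14.81, was at Ptpn14 from 25 tags. Dusp22, whose product inactivates Lck, had 2 H3K4me1 regions, and Dusp5, an ERK phosphatase of the nucleus, had 2 covering 4310 bp.

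Both a T-bet peak and an H3K4me1 region were assigned to 9 coding members, or 13.8%, where 4.91% of all coding genes had both. They were Dusp2, Dusp4, Dusp7, Ptp4a2, Ptp4a3, Ptpn1, Ptpn2, Ptpn5 and Ptprj. Among them Dusp2 and Ptpn5 were on an expression list, and the share over all coding genes with both was not counted. A T-bet peak without a listed region of either mark was found at 6 members, namely Ptpn7, Ptpn11, Ptpn13, Ptpn22, Ptprc and Ptprk. They are 9.23% of the 65 genes, where 4.44% of all coding genes had such a peak. These counts go by assigned name and not by distance. The Ptpn7 peak lay 5871 bp from an H3K4me1 region assigned to Ptprv. The Ptpn1 and Dusp7 peaks lay 97562 and 40948 bp from H3K4me1 regions of their own name.

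**Figure D5:**
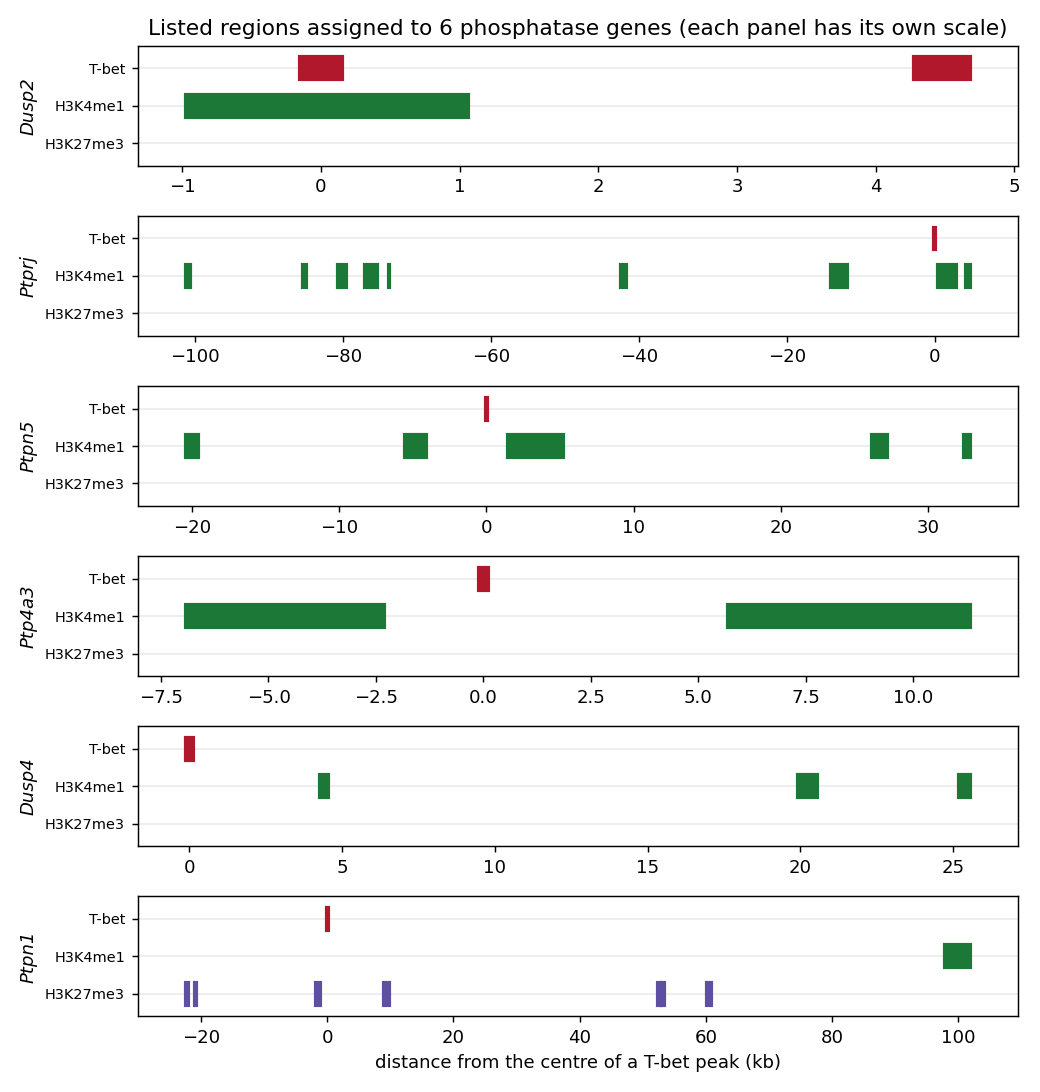
Position of the listed peaks of T-bet (red) and regions of H3K4me1 (green) and H3K27me3 (purple) assigned to 6 genes, as distance in kb from the centre of a T-bet peak (for Dusp2 the peak inside the H3K4me1 region), drawn to scale within each panel and with a different scale per panel. At Dusp2 the peak lies inside the H3K4me1 region, at Ptprj it ends 169 bp before one, and at Ptpn1 it lies among H3K27me3 regions, of which a pair 79 bp apart looks joined.

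H3K27me3 regions were assigned to 9 of the 65 genes, or 13.8%, a share near the 11.8% of all coding genes. They numbered 19, with fold enrichments from 4.47 to 12.11 and a median of 6.91, against 7.22 over the whole list. Ptpn1, which encodes the insulin receptor and JAK2 phosphatase PTP1B, had 7 regions on chromosome 2 over 83438 bp, from 167643595 to 167727032, and 17 of 2875 genes in the list had as many or more. Its T-bet peak at 167665892 to 167666343 (fold enrichment 2.94, 12 tags) began 765 bp after one of them, with 3 regions on one side and 4 on the other. This was the only 1 of the 22 member peaks within 1000 bp of an H3K27me3 region, where 1.36% of all peaks were. Of the 22 peaks, 0 touched one, where 0.496% of all peaks did. The single H3K4me1 region of Ptpn1 was 4243 bp long with 447 tags and lay 36873 bp beyond the last H3K27me3 region. Ptpn1 was the only member on all 3 region lists, or 1.54% of the 65 genes, where 1.69% of all coding genes were.

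H3K4me1 and H3K27me3 regions were both assigned to 3 members, Ptpn1, Dusp22 and Ptpn14, or 4.62%, where 4.42% of all coding genes had both. At Dusp22 an H3K27me3 region of 242 bp ended 173 bp before an H3K4me1 region of 1339 bp on chromosome 13 at 30695002 to 30696340. That was 1 of the 49 H3K4me1 regions, or 2.04%, within 1000 bp of an H3K27me3 region, where 1.5% of all H3K4me1 regions were. At Ptpn14, a FERM-domain phosphatase, the H3K27me3 regions included the longest of the members, 2162 bp with 90 tags, and lay 69452 bp from the H3K4me1 regions. Ptpn18 had 1 H3K27me3 region and a T-bet peak 11985 bp from it; with Ptpn1 it made 2 genes with both, or 3.08%, where 2.71% of all coding genes had both. Dusp10 had 3 H3K27me3 regions spread over 170528 bp on chromosome 1. Ptprr, Ptprn2, Ptpru and Ptpn21 had 1 each, from 11 to 17 tags.

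The counts can be read beside those of signalling genes, with the shares of all coding genes given above (10.4% for T-bet, 17.2% for H3K4me1 and 11.8% for H3K27me3). For the expression lists the shares were 0.963% lower and 0.941% higher in Tbx21-/- cells. In groups this small, counts of 0 on those lists lie near these shares. Of 17 antigen receptor kinases and adaptors, 2 were lower in Tbx21-/- cells, the adaptor gene Pag1 (16.2 FPKM in wild type, 7.30 in the knockout) and the Tec family kinase gene Txk (9.18 and 2.74 FPKM), and 0 were higher. T-bet peaks were assigned to 10 of the 17 (58.8%), H3K4me1 regions to 10 and H3K27me3 regions to 3 (17.6%). Of 16 MAP kinases and MAP kinase kinases, 0 were lower and Map2k6, a p38 kinase, was higher (1.65 and 5.10 FPKM), with T-bet peaks at 2 (12.5%), H3K4me1 regions at 5 (31.2%) and H3K27me3 regions at 0. Of 11 inhibitors of the ERK pathway, 0 were on an expression list, 4 had a T-bet peak and 9 (81.8%), among them Spry1, Spry2, Spry4 and Spred1, had an H3K4me1 region, and 3 (27.3%) had an H3K27me3 region. Of 15 JAK-STAT genes, 0 were on an expression list, 6 had a T-bet peak (40%), 8 an H3K4me1 region (53.3%) and 2 an H3K27me3 region (13.3%). Of 35 related phosphatases without the 4 prefixes, 0 were on an expression list, 6 (17.1%) had a T-bet peak, 11 (31.4%) an H3K4me1 region and 8 (22.9%) an H3K27me3 region.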

How the data were processed

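RNA-seq and ChIP-seq of 9 samples in 7 groups came as 5 lists. Samples were grouped by their titles. In the deposited lists the authors give FPKM per genotype, with the duplicate libraries combined, and a log2 ratio of Tbx21-/- over wild type, and for each region the counts of tags, the fold enrichment as a ratio over the caller's control and, for T-bet, the false discovery rate in percent. Per the labels, the T-bet control was Th1 input. Neither labels nor headers name the control of the histone lists. TopHat 1.3.3, MACS 1.4.1, Bowtie 0.12.7, CASAVA 1.7, DESeq and build mm9 stand in the submitters' processing notes, without roles.

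Members were taken by symbol prefix and counted per list beside 21900 protein-coding genes matched by symbol or synonym. Overlap meant at least 1 bp. The overlap step was tested on simulated intervals. No test was run. The members, the role groups, the gene lists and the rule for genes described in full (listed expression, joint or multiple regions, the most regions, and chosen T cell phosphatases) were chosen with earlier results of these data known; Ptpn7, Ptpn13, Ptprr, Ptprk and the other members described beyond it were chosen after their values were seen. Python 3.11.15, pandas 2.3.3, numpy 2.4.6 and matplotlib 3.10.9 were used.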

Additional observations from a re-analysis of the deposited data

How the results depend on the processing

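Of 16 recounts of the 7 member counts under other limits, 6 stayed within 1.5 times the reported count. Those 6 include the recounts at a false discovery rate of at most 5%. These could not move, since no member peak had a rate above 0.59%, and 99.4% of all peaks pass that limit. Leaving out Ptprcap or using current RefSeq symbols could change no count, since Ptprcap is on no list and no listed synonym names a member. Ptprcap was kept among the 65 genes over which shares are taken. With a fold enrichment of at least 3, 6 genes with 6 T-bet peaks remained (Ptprj, Ptpn13, Ptprc, Dusp7, Ptpn5 and Ptprk), or 27.3% of the member peaks where 35.2% of all peaks pass, and with at least 20 tags 0 genes and 0 peaks, where 6.60% of all peaks pass. H3K4me1 genes fell from 21 to 7 with regions at or above the median fold enrichment of the list. Of the 49 member regions 12 lay above that median, against 3834 of 7669 in the list. With at least 2 regions, H3K4me1 genes fell to 13 (61.9%, where 36.1% of the genes in that list have as many). H3K27me3 genes fell from 9 to 4 under that limit (44.4%, where 22.8% of the genes in that list have as many). At 3-fold or more, 1 gene (Ptpn5) was left on the expression lists, and 3 were left, without Ptpn12, with a pseudocount of 1 or with at least 10 FPKM in the higher genotype. The median fold over all 219 genes listed as lower in Tbx21-/- cells was 3.00. The shares of all listed genes that pass these limits were not counted. Allowing a gap of 1000 bp gave 2 peaks at H3K4me1 and 1 at H3K27me3. These settings tighten or loosen the limit, which by construction moves the counts. No paired analysis was possible because the deposited columns combine the duplicate libraries, and for the same reason no replicate could be left out. Member peaks rest on 6 to 18 tags of 1 library.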

Other observations

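Several phosphatase loci border regions assigned to other genes. A T-bet peak at Ptpn18 lay 2793 bp from an H3K27me3 region assigned to Prss39, closer than the region of Ptpn18 itself, and a T-bet peak of Prss39 lay 31410 bp away. Next to Dusp2, an H3K4me1 region assigned to Stard7 lay 7312 bp from the peak inside the Dusp2 region. The T-bet peak nearest to the H3K4me1 regions of Dusp22 was assigned to Irf4, a transcription factor gene of lymphocytes, 136471 bp away. Ptpn1 follows Cebpb among the coding genes of the RefSeq order, and Cebpb had 12.8 FPKM in wild type against 28.6 in the knockout, while Ptpn1 was on neither expression list.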
